A study of Arabidopsis thaliana with 8 samples.

Results

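Cellulose synthesis in stem walls was examined through 7 genes, of which 6 act in secondary walls and 1, COB, served as the primary wall contrast. The 6 secondary wall genes were the cellulose synthase genes CESA4 (AT5G44030), CESA7 (AT5G17420) and CESA8 (AT4G18780), the COBRA-like gene COBL4 (AT5G15630), the chitinase-like gene CTL2 (AT3G16920) and TBR (AT5G06700), and the contrast COB carries the locus AT5G60920. The genes were chosen by function and by their presence among the named probes, and each was read from 1 of the 37685 probes of the array. TBR and COB are named by the platform annotation. The other 5 are named here only because the study listed them as called at 8 weeks on these arrays, so their values at 8 weeks are given as a description and were not tested.

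The arrays compared lower primary inflorescence stems of SND2-OV(A), a homozygous T4 line of Arabidopsis thaliana that overexpresses the NAC transcription factor gene SND2, with wild type Col-0 stems of the same age, at 4 and at 8 weeks. The transgene was carried by the overexpression vector pMDC32, whose constitutive promoter is not restricted to any cell type, and every value comes from this line alone, which the study picked from 3 homozygous lines because its CESA8 transcript was raised. Each replicate was a pool of plants per genotype. Of the 3 replicates per age, the first was run as a dye swap on 2 arrays, the second had SND2-OV(A) labelled with Cy3 and the third with Cy5, which gives 4 arrays per age. The labels give hygromycin at 50 µg/ml for the transgenic plants, whereas the methods state selection for the 8-week plants and none for the 4-week plants. Age therefore cannot be told apart from selection, pool size or the share of the stem that was sampled.

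Cellulose is made at the plasma membrane by complexes of cellulose synthase subunits. In secondary walls, which xylem vessels and fibres lay down after growth has ceased, the complex holds CESA4, CESA7 and CESA8, and loss of any of them leaves thin walls and collapsed xylem. COBL4 is an anchored surface protein required for normal cellulose deposition in these walls, and CTL2 lacks a known role in chitin breakdown and is associated with cellulose assembly. TBR is required for crystalline cellulose in trichomes and in secondary walls. COB, the founding COBRA protein, acts in primary walls, where it is required for oriented cell expansion.

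Each value is a log2 ratio of SND2-OV(A) over wild type, so that 0 stands for equal signal and 0.58 for a 1.5-fold higher signal in the line. The deposited table holds no intensities, hence levels could not be compared between genes, the signal over background is not known, and the stem tissue could not be checked against marker genes. In whole stems, a larger share of cells that make secondary walls and more transcript per cell cannot be told apart. The SND2 probe was higher in the line on every array, at 3.03 ± 0.32 (SD, n = 3) at 4 weeks and 6.69 ± 1.28 at 8 weeks. The study noted a saturated signal for SND2 at the later age, so that ratio is likely too low. Array medians lay between -0.11 and 0.06, and the Cy5 array of replicate 1 at 8 weeks spread most over probes (SD 1.01, against 0.308 to 0.347 for the other arrays of that age; arrays are called by the dye of the line). In limma, 0 of 37685 probes passed an adjusted p under 0.05 with a change over 1.5-fold at either age or between the ages, and the smallest adjusted p was 0.44 at 8 weeks and 0.372 at 4 weeks. The transgene itself was not called, since SND2 had an adjusted p of 0.44 at 8 weeks and 0.41 at 4 weeks in limma. A gene that did not pass this test is therefore not shown to be unchanged. The study itself, at the same nominal thresholds, listed 223 probes at 8 weeks, and its RT-qPCR on the same RNA found CESA4 significantly higher in the line. The reason for the difference in calls was not tested.

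At 8 weeks the log2 ratios of the secondary wall cellulose synthase genes were above 0 in all 3 replicates. They were highest in replicate 3 and small in replicate 2, where CESA8 was at 0.003. CESA4 had log2 ratios of 0.64 and 0.48 on the dye-swapped arrays of replicate 1, 0.12 in replicate 2 and 1.95 in replicate 3. Its mean of 0.88 ± 0.96 (SD, n = 3), or 1.84-fold, was smaller than its spread, and without replicate 3 it was 0.34. CESA7 had 0.64 and 0.76 on the arrays of replicate 1, 0.09 in replicate 2 and 1.59 in replicate 3. The mean of CESA7 was 0.79 ± 0.75 (1.73-fold), close to the size of its spread, and 0.40 without replicate 3.

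CESA8 had log2 ratios of 0.79 and 0.48 on the arrays of replicate 1, 0.003 in replicate 2 and 1.48 in replicate 3. Its mean was 0.71 ± 0.74 (1.63-fold) and fell to 0.32 without replicate 3. In replicate 2 the CESA8 signal of the line thus lay at that of the wild type. The direction of CESA8 was not independent of the design, since the line itself was selected for it.

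The 3 subunits stayed close to each other within a replicate while the replicates lay far apart. Their log2 ratios spanned 0.15 in replicate 1, 0.12 in replicate 2 and 0.47 in replicate 3, where CESA4 stood above the other two. CESA7 minus CESA8 was 0.07, 0.08 and 0.11 in replicates 1, 2 and 3 at 8 weeks and 0.10, 0.08 and -0.31 at 4 weeks. The 8-week value of replicate 1 averages arrays of opposite sign, since CESA7 stood at 0.64 against 0.79 for CESA8 on the Cy3 array and at 0.76 against 0.48 on the Cy5 array. Each gene was read from 1 probe, so a property of the probe and a property of the transcript cannot be told apart in these small differences.

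The surface and assembly genes COBL4 and CTL2 were higher at 8 weeks to a like extent in the mean, but they differed in replicate 2. COBL4 had log2 ratios of 0.76 and 0.31 on the arrays of replicate 1, 0.34 in replicate 2 and 1.21 in replicate 3. Its mean of 0.70 ± 0.46 (1.62-fold) exceeded its spread, which was the smallest among the 5 listed genes, and without replicate 3 it was 0.44. CTL2 had 0.66 and 0.72 on the arrays of replicate 1, -0.23 in replicate 2 and 1.85 in replicate 3. CTL2 was the listed gene with a replicate below the wild type and with the widest spread, at 0.77 ± 1.04 (1.71-fold), and its mean was 0.23 without replicate 3 and 1.27 without replicate 2.

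The 5 listed genes were above 1.5-fold in the mean at 8 weeks, a level that 0.456% of all probes reached, and this count was set by how these genes were named. Without replicate 3 none of the 5 was above 1.5-fold, with log2 ratios of 0.23 to 0.44. Being above 0 in all 3 replicates held for 4 of the 7 genes (COBL4 and the CESA genes, with CESA8 at 0.003 in replicate 2), against 7.73% of all probes. This count too was set by the naming, since all 4 are listed genes, and neither TBR nor COB was among them. The means of all 7 genes lay above 0, as did those of 38.0% of probes. In all 7 genes, TBR and COB included, replicate 3 gave the highest and replicate 2 the lowest value, an order that 32.3% of probes shared.

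**Figure D1:**
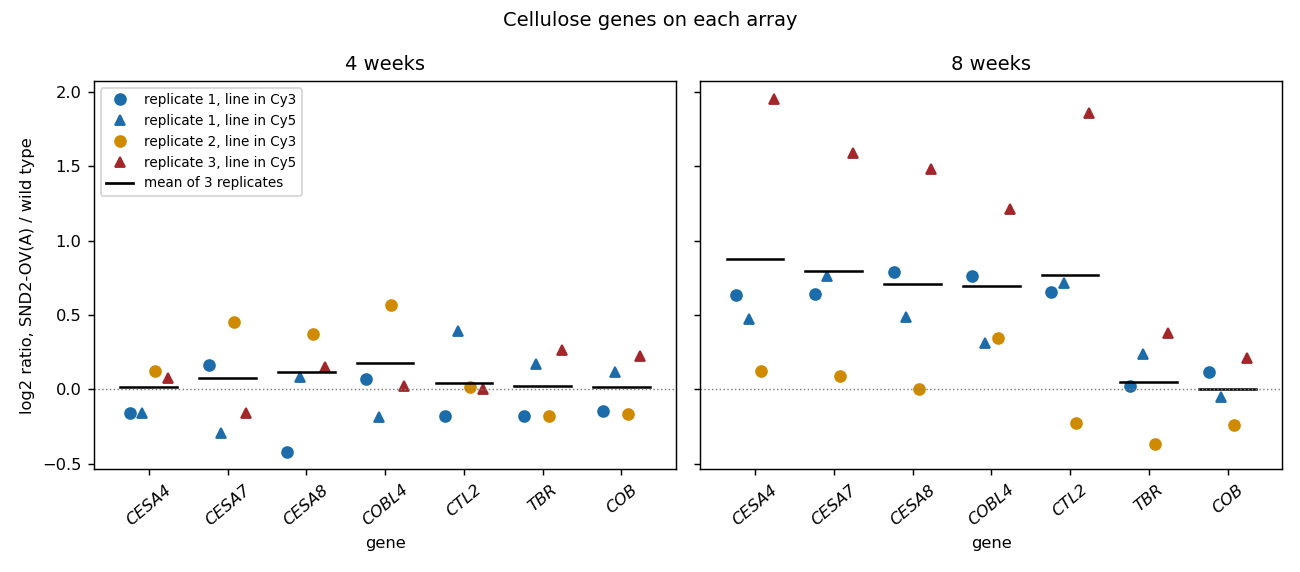
Log2 ratio of SND2-OV(A) over wild type (vertical axis) for the 7 genes on each of the 4 arrays at 4 weeks and at 8 weeks. Symbols give the dye of the line, colours the replicate and bars the mean of 3 replicates; at 8 weeks the CESA genes, COBL4 and CTL2 reach 1.21 to 1.95 in replicate 3 and -0.23 to 0.34 in replicate 2, whereas TBR and COB stay within -0.37 to 0.38.

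Set among all probes of the same array, the listed genes stood near the top on 3 of the 4 arrays at 8 weeks. On the Cy3 array of replicate 1 they ranked from the 98.9th to the 99.4th percentile, and on its dye-swapped partner from the 92.4th to the 99.3rd. On the array of replicate 3 they ranked from the 99.3rd to the 99.8th percentile. On the array of replicate 2, COBL4 stood at the 94.7th percentile, CESA4 at the 78.6th, CESA7 at the 73.9th, CESA8 at the 61.9th and CTL2 at the 25.7th. Replicate 2 was therefore the replicate in which the CESA genes and CTL2 were not set apart from the bulk of the probes. Of the 20 values of these 5 genes on the 8-week arrays, 19 were above 0, against 13 of 20 at 4 weeks. The 8-week count and percentiles were set by the naming, since calls at that age named the genes, so nothing is read from the contrast. The 20 values are also not independent, as they hold 5 genes on the same 4 arrays, with replicate 1 entering on 2 of them.

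**Figure D2:**
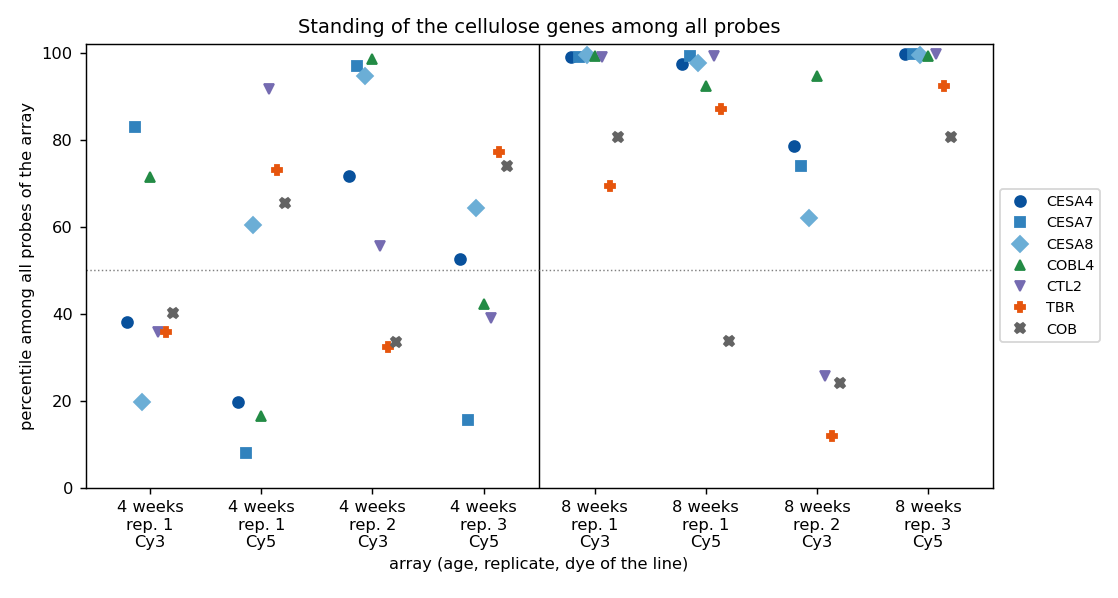
Percentile of each of the 7 genes among the 37685 probes (vertical axis) on each of the 8 arrays (horizontal axis). The CESA genes, COBL4 and CTL2 gather above the 92.4th percentile on the arrays of replicates 1 and 3 at 8 weeks and scatter from the 8.03rd to the 98.6th percentile on the 4-week arrays.

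TBR, which is named independently of the study's calls, lay near the wild type in the mean. Its log2 ratios at 8 weeks were 0.02 and 0.24 on the arrays of replicate 1, -0.37 in replicate 2 and 0.38 in replicate 3. The mean was 0.05 ± 0.38 (SD, n = 3; limma, adjusted p = 1.00), with replicates on both sides of 0. Of TBR and COB, 0 of 2 had an unadjusted p under 0.05, against 3.50% of all probes. The 95% interval of the moderated fit, -0.39 to 0.49, did not reach a 1.5-fold rise.

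COB, the primary wall contrast, had log2 ratios of 0.12 and -0.05 on the arrays of replicate 1, -0.24 in replicate 2 and 0.21 in replicate 3 at 8 weeks. Its mean was 0.00 ± 0.23 (n = 3; limma, adjusted p = 1.00; 95% interval -0.31 to 0.32). As for TBR, the values fell on both sides of 0 and the upper limit was below 1.5-fold, which was so for 93.1% of all probes. A difference between the listed genes and TBR or COB at 8 weeks was not tested, because the listed genes had been chosen on the same values.

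At 4 weeks none of the 7 genes passed the test, and 0 of 7 had a mean above 1.5-fold, against 1.05% of all probes. CESA4 had log2 ratios of -0.16 on each array of replicate 1, 0.12 in replicate 2 and 0.08 in replicate 3, with a mean of 0.01 ± 0.15 (n = 3; 95% interval -0.30 to 0.33). CESA7 had 0.16 and -0.29 on the arrays of replicate 1, 0.45 in replicate 2 and -0.16 in replicate 3, with a mean of 0.08 ± 0.33 (-0.37 to 0.53). CESA8 had -0.42 and 0.08 in replicate 1, 0.37 in replicate 2 and 0.15 in replicate 3, with a mean of 0.12 ± 0.27 (-0.28 to 0.52). Each subunit thus had replicates on both sides of the wild type. Replicate 2 was the highest for the CESA genes and COBL4, 4 of the 7 genes, against 32.5% of all probes.

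COBL4 followed the subunits at 4 weeks, with 0.07 and -0.19 on the arrays of replicate 1, 0.57 in replicate 2 and 0.02 in replicate 3. Its mean of 0.18 ± 0.34 was the highest of the 7 genes, and its 95% interval of -0.28 to 0.64 was the one that reached past a 1.5-fold rise. CTL2 had -0.18 and 0.39 on the arrays of replicate 1, 0.01 in replicate 2 and 0.003 in replicate 3, with a mean of 0.04 ± 0.06 (-0.24 to 0.32). CTL2 was the 1 gene of the 7 that lay above 0 in all 3 replicates at this age, against 8.91% of all probes. The small spread of CTL2 over replicates hides the widest gap between dye-swapped arrays among the 7 genes, 0.57.

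TBR had -0.18 and 0.17 on the arrays of replicate 1, -0.18 in replicate 2 and 0.26 in replicate 3 at 4 weeks, with a mean of 0.03 ± 0.22 (-0.34 to 0.39). COB had -0.14 and 0.12 on the arrays of replicate 1, -0.17 in replicate 2 and 0.23 in replicate 3, with a mean of 0.02 ± 0.20 (-0.33 to 0.36). For both, the replicates again lay on either side of 0, with replicate 3 the highest and replicate 2 the lowest, an order that these 2 of the 7 genes shared with 27.1% of all probes at 4 weeks. In limma the adjusted p at 4 weeks was 1.00 for each of the 7 genes, and 0 of 7 had an unadjusted p under 0.05, against 0.992% of all probes. The upper 95% limit was below a 1.5-fold rise for 6 of the 7 genes, against 81.9% of all probes. These intervals rest on 3 replicates and were not adjusted over probes. The 8-week means of the listed genes lay above their 4-week intervals, but without replicate 3 those means lay inside the intervals for CESA7, CESA8, COBL4 and CTL2. This is no test of age, since the 8-week values named these genes and the intervals hold the spread at 4 weeks alone.

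Between the ages, the mean ratios of the listed genes were higher at 8 weeks by 0.52 to 0.86, which is given without a test, and by 0.19 to 0.33 without replicate 3 at 8 weeks. A higher mean at 8 weeks was found for 6 of the 7 genes, all but COB, and for 45.7% of all probes, but 5 of the 6 are listed genes whose 8-week values named them, so that nothing is read from this count. CESA4 went from 0.01 to 0.88, a difference of 0.86, and was the only one of the 7 whose 8-week replicates all lay above its 4-week replicates, by a gap between 0.1238 and 0.1247. Such a separation was found for 2.13% of all probes. The difference was 0.73 for CTL2, 0.72 for CESA7, 0.59 for CESA8 and 0.52 for COBL4, and in these genes replicate 2 at 8 weeks lay within or below the range at 4 weeks. In COBL4 and the CESA genes the order of the replicates turned over, since replicate 2 was the highest at 4 weeks and the lowest at 8 weeks.

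The 2 genes that could be tested did not pass the test between the ages, and neither had an unadjusted p under 0.05, against 1.60% of all probes. TBR differed by 0.02 (95% interval -0.53 to 0.58; limma, adjusted p = 1.00) and COB by -0.01 (-0.45 to 0.42; adjusted p = 1.00). These intervals are wide enough to hold differences as large as that of COBL4 in the case of TBR. The ratio of SND2 itself was lower at 4 weeks than at 8 weeks in all replicates, and the part of transgene level in the age differences of the cellulose genes was not tested. A ratio also does not tell whether the line or the wild type changed with age.

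**Figure D3:**
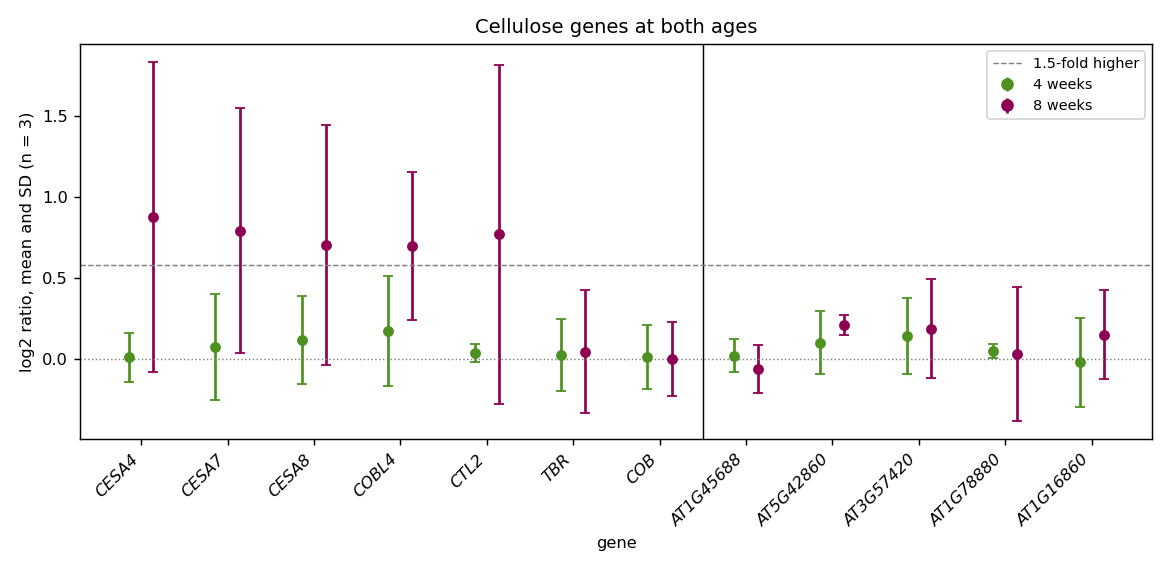
Mean log2 ratio of the line over wild type and SD of 3 replicates (vertical axis) at 4 and at 8 weeks for the 7 genes and, right of the line, for 5 further cellulose loci. The means of the CESA genes, COBL4 and CTL2 at 8 weeks lie between 0.70 and 0.88 with SDs of 0.46 to 1.04, and all other means lie between -0.06 and 0.21.

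Since COB was measured in the same hybridizations, the secondary wall genes were also expressed relative to COB within each replicate, a calculation added after the data had been seen. At 8 weeks all 5 listed genes exceeded COB in all 3 replicates. This was not independent of their naming through the study's 8-week calls, and the share of all probes above COB was not computed. CESA4 exceeded it by 0.52, 0.36 and 1.74 in replicates 1, 2 and 3, CESA7 by 0.67, 0.33 and 1.38, and CESA8 by 0.60, 0.24 and 1.27. COBL4 exceeded COB by 0.50, 0.58 and 1.00, or 0.70 ± 0.27, the steadiest of the 5, and CTL2 by 0.65, 0.01 and 1.64. Replicate 2, in which COB itself was low, came closer to replicate 3 on this scale for all 5 genes, as subtracting a gene that was lowest in replicate 2 and highest in replicate 3 must give.

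TBR lay close to COB at both ages. TBR minus COB was 0.09, -0.13 and 0.17 in the 3 replicates at 8 weeks, and 0.01, -0.01 and 0.04 at 4 weeks. The median of the 6 secondary wall genes, TBR included, exceeded COB by 0.56, 0.28 and 1.32 at 8 weeks (0.72 ± 0.54) and by -0.05, 0.42 and -0.18 at 4 weeks. At the earlier age the CESA genes and COBL4 were above COB in replicate 2 and below it in the other replicates, CTL2 was below it in replicate 3 alone, and TBR lay within 0.04 of it.

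**Figure D4:**
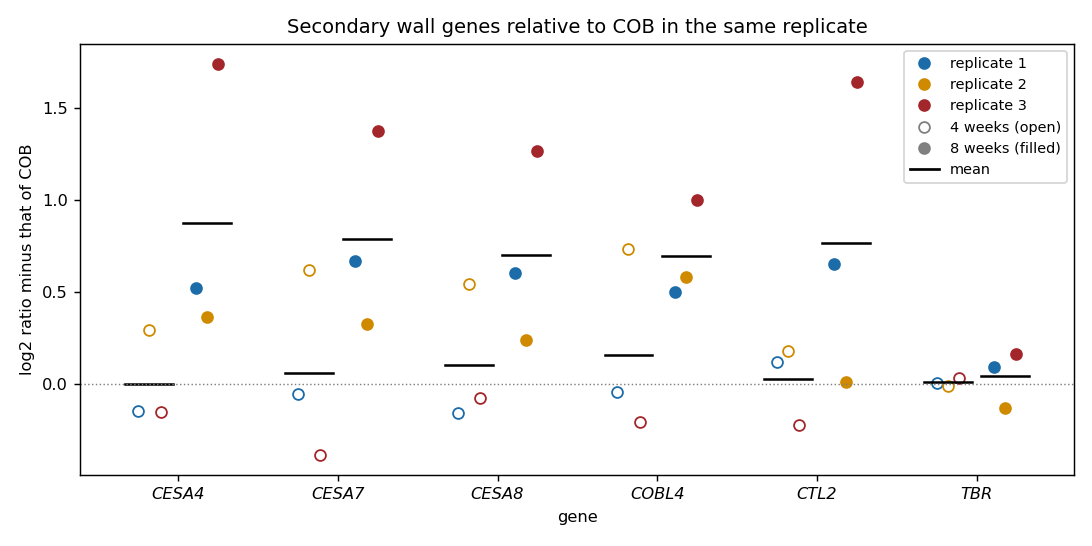
Log2 ratio of each secondary wall gene minus that of COB in the same replicate (vertical axis), at 4 weeks (open) and 8 weeks (filled), with bars for the mean of 3 replicates. The CESA genes, COBL4 and CTL2, which were named through the study's 8-week calls, lie above COB in every replicate at 8 weeks, by 0.01 to 1.74. TBR lies within -0.13 to 0.17 of COB at both ages.

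Replicate 3 at 8 weeks, which carried the largest share of the rise, also gave high values in 4 genes that respond to touch and early stress. Of a list of 15 such genes, drawn up after the data had been seen, 4 were named on the array, 3 of them only through the study's own lists. The values of those 3 (XTH22, ACS6 and ZAT12) are therefore not independent of their naming, and only ORA47 is named by the annotation. Their log2 ratios in replicate 3 were 3.82 for XTH22, a touch-induced wall enzyme gene, 3.74 for the transcription factor gene ORA47, 3.35 for the ethylene synthesis gene ACS6 and 2.47 for the zinc finger gene ZAT12. In replicate 1 the 4 genes ranged from -1.65 to 0.36 and in replicate 2 from -1.63 to 0.27. At 4 weeks their medians were 1.00, -1.63 and -0.10 in replicates 1, 2 and 3, so that they were lowest in replicate 2, where the CESA genes and COBL4 were highest. A link between these 4 genes and the cellulose gene values of replicate 3 was not tested, and without that replicate the listed genes had the means given above.

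The dye that carried the line moved with TBR at both ages. All 4 arrays with the line in Cy5 gave higher TBR ratios, from 0.17 to 0.38, than all 4 arrays with it in Cy3, from -0.37 to 0.02, as was found for 10.8% of all probes. For COB this separation held at 4 weeks, with 0.12 to 0.23 in Cy5 and -0.17 to -0.14 in Cy3, and not at 8 weeks. At 8 weeks it also held for CESA7 (0.76 to 1.59 in Cy5, 0.09 to 0.64 in Cy3). CTL2 showed it too (0.72 to 1.85 in Cy5, -0.23 to 0.66 in Cy3), but CESA4, CESA8 and COBL4 did not. At 4 weeks no listed gene showed it, and CESA7 and COBL4 were lower in Cy5 than in Cy3 on all arrays. The share of all probes with either order within a single age was not computed, so nothing is read from these separations within an age. With dye as a term in a fit over the 4 arrays of an age, the mean at 8 weeks was 0.07 for TBR and 0.01 for COB. That fit treats both arrays of replicate 1 as separate samples, so that this pool counts more than the others, and it is given as a value without its interval or test.

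In the listed genes the dye could be compared directly within replicate 1, whose arrays share the same RNA. At 8 weeks the dye-swapped arrays differed by 0.06 for CTL2, 0.12 for CESA7, 0.16 for CESA4, 0.31 for CESA8 and 0.45 for COBL4, and all 10 values were above 0. That sign was not independent of the naming of these genes through the 8-week calls. The share of all probes above 0 on both arrays was not computed. The median gap of the 7 genes was 0.17, against 0.25 over all probes. At 4 weeks the median gap of the 7 genes was 0.35, against 0.26 over all probes. For each of the 7 genes but CESA4, TBR and COB included, the 2 arrays fell on opposite sides of 0. The share of all probes that did so was not computed. Across probes, which are not independent, the dye-swapped arrays correlated with r = 0.0879 at 8 weeks and 0.0623 at 4 weeks. Replicates 2 and 3 each had a single dye orientation, opposite to each other, so dye and replicate cannot be told apart in the distance between them.

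**Figure D5:**
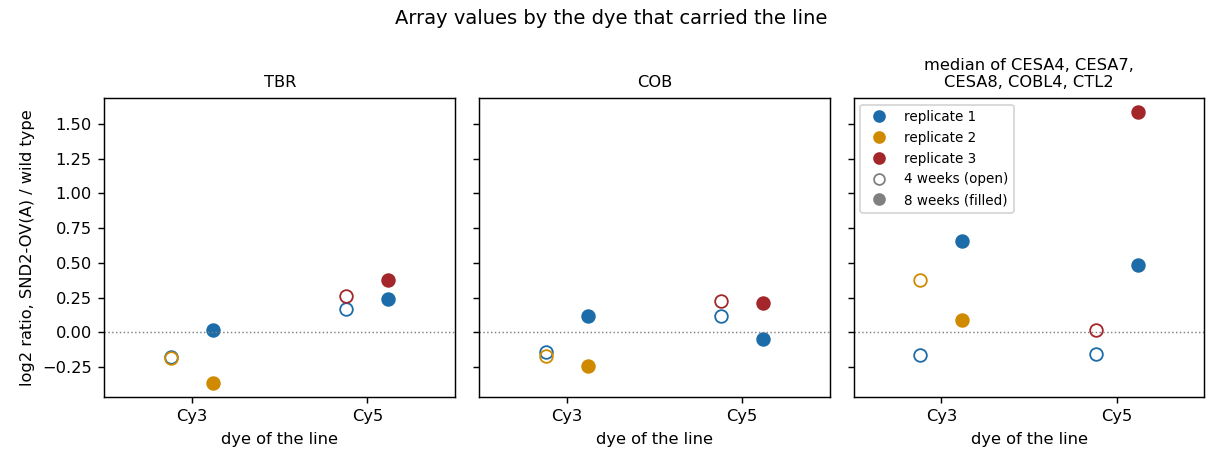
Log2 ratio of SND2-OV(A) over wild type (vertical axis) on each array by the dye that carried the line, for TBR, for COB and for the median of the 5 listed genes, with colours for replicates, open symbols for 4 weeks and filled symbols for 8 weeks. TBR is at 0.17 to 0.38 in Cy5 and -0.37 to 0.02 in Cy3; the median of the listed genes at 8 weeks is 0.66 and 0.48 on the arrays of replicate 1, 0.09 in replicate 2 and 1.59 in replicate 3.

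Beyond these genes, a list of 43 further cellulose loci (7 primary wall synthases, 9 other COBRA family members, 12 proteins that accompany the complex, 10 genes of sugar supply, 3 membrane-bound endoglucanases, 1 chitinase-like gene and 1 relative of TBR) was read from the named probes. It found 5 with a named probe, and the remaining 38 were not analysed here. The 5 are given by locus, since the tables used carry no name for them. At 8 weeks the mean log2 ratio was 0.21 ± 0.06 for AT5G42860, 0.19 ± 0.30 for AT3G57420, 0.15 ± 0.27 for AT1G16860, 0.03 ± 0.41 for AT1G78880 and -0.06 ± 0.15 for AT1G45688. Of these 5 loci 0 passed the test in either direction at either age, and 4 had a mean above 0 at each age, against 38.0% of all probes at 8 weeks and 49.1% at 4 weeks.

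AT5G42860 was the steadiest of them, with 0.15, 0.22 and 0.27 in replicates 1, 2 and 3 at 8 weeks (95% interval -0.02 to 0.44; limma, adjusted p = 0.99). It lacked the wide step between replicates that marked the CESA genes. At 4 weeks its replicates were -0.10, 0.12 and 0.29, with a mean of 0.10 ± 0.19. The median of the 5 loci at 8 weeks was 0.05, -0.02 and 0.44 in replicates 1, 2 and 3, so that it too was highest in replicate 3.

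Finally, the 7438 annotated probes other than TBR and COB were compared with the mean of CESA4, CESA7 and CESA8 over the 8 arrays. The 5 most similar loci were AT1G77840 (r = 0.979), AT1G48100 (0.974), AT2G28315 (0.973), AT3G54040 (0.954) and AT4G24840 (0.952), where the 99th percentile of annotated probes was 0.828 and the median was 0.02. On the same measure CTL2 had r = 0.923, COBL4 0.919, TBR 0.52 and COB 0.414. CTL2 and COBL4 were named through the same 8-week calls as the CESA genes, so their r is not independent of the naming, unlike that of TBR and COB. These correlations rest on 8 arrays from 6 replicates, and the points share the array of replicate 3 at 8 weeks, on which the CESA genes were far above their other values.

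The similar loci differed in the size of their change. AT2G28315 had log2 ratios of 0.51 and 0.40 on the arrays of replicate 1, 0.28 in replicate 2 and 1.38 in replicate 3 at 8 weeks, a mean of 0.70 ± 0.59, as large as that of CESA8. AT3G54040 had 0.42 in both arrays of replicate 1, -0.06 in replicate 2 and 1.73 in replicate 3, with a mean of 0.69 ± 0.93. Both loci also stand in the study's list of genes called at 8 weeks. The other loci followed the same order at smaller size, with 8-week means of 0.33 ± 0.41 for AT1G48100, 0.19 ± 0.22 for AT1G77840 and 0.16 ± 0.25 for AT4G24840. This order was not independent of how the loci were picked, by likeness to the CESA mean on the same arrays. At 8 weeks 32.3% of all probes shared it.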

How the data were processed

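Stem RNA of SND2-OV(A) and wild type was compared on 2-colour Agilent arrays hybridized with cDNA. Slides were scanned by the authors with an Axon GenePix instrument, GenePix Pro was used for feature extraction, and normalization was done in R with limma. The deposited values are normalized log2 ratios of the line over wild type for 37685 probes, without missing values or intensities, and no filter was applied. Scale and direction were checked on the study's lists: 216 of 223 probes at 8 weeks and 45 of 45 at 4 weeks matched the listed fold on the log2 scale to within 0.01. The direction is thus that of the lists. The annotation table names 7440 probes, and 7628 are named once the lists are added. Of 63 probes in both, 61 carried the same locus. No gene coordinates are given, as the build of the probes is not given in the sources used here, and sequences were not analysed here.

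Groups came from the labels. The 2 arrays of replicate 1 were averaged, giving n = 3 pools per age, and limma 3.58.1 (R 4.3.3) was fitted per age with an intercept only, or over the 6 ratios for the difference between ages. Adjustment over all probes followed Benjamini-Hochberg, with calls at an adjusted p under 0.05 and a change over 1.5-fold. Intervals at 95% are limma's, unadjusted. The fit was tested on simulated data. The members and lists were chosen with earlier results of these data known. The named genes are the 7 genes, all list members with a named probe, SND2, and the 5 annotated probes nearest to the CESA mean; the stress genes were added later. Alternatives covered the dye pair, a dye term, centring, scaling, the prior, a joint fit, a replicate block and each replicate left out. Tables and figures used Python 3.11.15, pandas 2.3.3, numpy 2.4.6 and matplotlib 3.10.9.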

Additional observations from a re-analysis of the deposited data

How the results depend on the processing

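The number of arrays, 3 replicates per age, sets the precision, and the wide intervals do not show that genes were equal. With both ages in one fit, the calls numbered 2 at 8 weeks (SND2 and MRD1) and 2 at 4 weeks (MRD1 and AT3G50380), against 0 and 0 when each age was fitted alone. Leaving out each replicate gave 0 to 3 called probes at 8 weeks (3 without replicate 1, which were SND2, MRD1 and AT3G01345, and 1, SND2, without replicate 2) and 0 at 4 weeks. The cause was not tested. The median of the 6 secondary wall genes at 8 weeks was 0.74, and it was 0.33 without replicate 3 and 1.10 without replicate 2. It was 0.77 when arrays were centred on their medians and 0.72 with a dye term. At 4 weeks it was 0.06 and ranged from -0.013 to 0.124 when replicates were left out.

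Of 231 values of the 7 genes under alternatives, 24 changed sign, all of them at most 0.144 in size. With a dye term, in a fit that takes both arrays of replicate 1 as separate samples, CESA4 was at -0.029 at 4 weeks and COB differed by 0.0022 between ages. With the Cy3 array of replicate 1 alone, CTL2 was at -0.054, TBR at -0.032 and COB at -0.028 at 4 weeks, and COB differed by 0.058 between ages. With its Cy5 array alone, COB was at -0.026 at 8 weeks and TBR differed by -0.00011 between ages. With centred arrays COB differed by 0.028 between ages.

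Leaving out each replicate in turn at 4 weeks gave -0.040 to 0.101 for CESA4, -0.112 to 0.194 for CESA7, -0.0080 to 0.262 for CESA8, -0.019 to 0.294 for COBL4, -0.092 to 0.129 for TBR and -0.090 to 0.107 for COB. At 8 weeks it gave -0.118 to 0.253 for TBR and -0.102 to 0.123 for COB, and between the ages -0.144 to 0.227 for TBR and -0.117 to 0.107 for COB. The lowest adjusted p of any tested value of the 7 genes was 0.803.

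Replicates of the same number at 4 and 8 weeks are different plants, so the number was not used to pair them in the main fit. Same-numbered deviations correlated with r = -0.020, 0.123 and 0.156 for replicates 1, 2 and 3, against -0.214 to 0.078 for differently numbered ones. The number also carries the dye orientation, so an effect of number and an effect of dye cannot be told apart here. With the replicate number as a block, 0 probes were called between the ages, 843 had an unadjusted p under 0.05 against 603 without the block, and the differences of 0.02 for TBR and -0.01 for COB kept their values with adjusted p of 1.00 in limma.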
